A study of Mus musculus with 48 samples.

Results

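The effect of volume overload on gene expression was examined in cardiomyocytes of the mitochondrial-nuclear exchange (MNX) mice titled C57_MNX. These were 6 of the 48 RNA-seq libraries of the series, taken by their column titles, 3 from mice with ACF (6658, 6692 and 6693) and 3 from mice with sham surgery (6659, 6695 and 6763). ACF, the aortocaval fistula, is a surgical shunt from artery to vein that loads the heart with volume, and both groups are labelled as taken on day 3. In MNX mice the mitochondrial genome of one strain is combined with the nuclear genome of another, here C57BL/6J and C3H/HeN. Age and sex are not given in the sources used here. Hearts were perfused with collagenase, the right ventricle and atria were taken off, and only preparations that passed purity and viability limits were kept, per the labels' protocols.

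The genotype of these 6 libraries was in doubt. Their genotype tag reads MNX C3Hn:C57mt, a C3H nucleus with C57 mitochondria, in both the ACF and the sham libraries. On a score built from 31 genes that separate C57 from C3H nuclei in libraries of the same series that carry no surgery in their titles (0 for C57 nuclei and 1 for C3H nuclei), the ACF libraries scored 0.0514, 0.0261 and -0.0545, and the sham libraries -0.0111, 0.00292 and 0.0577. All 6 libraries therefore lay at the C57 end. Of 2 genes looked at singly, Kcnj14, an inward rectifier potassium channel gene, had 0.0971 to 0.343 CPM in the ACF libraries and 0.168 to 0.573 CPM in the sham libraries. CPM is the counts-per-million unit, scaled for library size, here over the 48 libraries. Among libraries titled without surgery, Kcnj14 had 81.9 to 126 CPM in the 12 with a C3H nucleus and 0.852 to 2.15 CPM in those with a C57 nucleus. The other gene, Nnt, did not separate the nuclei. It had 335 to 515 CPM with a C57 nucleus, 366 to 659 CPM with a C3H nucleus and 294 to 492 CPM in the 6 libraries in doubt. These 6 libraries are called C57_MNX here, after their titles. The nuclear profile goes against the tag, and the mitochondrial genome cannot be read from a gene count table, so what is compared is ACF with sham within 1 title and 1 tag.

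Volume overload stretches the ventricular wall in diastole. In rodent hearts, wall stretch is known to induce the natriuretic peptides and other genes of the fetal programme, and endothelin, angiotensin and calcium signals act on the same genes. Cardiomyocytes depend on fatty acid oxidation and hold dense mitochondria whose respiratory complexes are built from both genomes. Interferons, by contrast, act through the JAK-STAT pathway on guanylate-binding proteins, immunity-related GTPases and the antigen presentation machinery, in cardiomyocytes as in other cells.

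Libraries held 16198410, 19705452 and 16508940 counts with ACF and 18977680, 15893595 and 18389540 with sham, and 12260 genes were tested. No gene passed a Benjamini-Hochberg adjusted p of 0.05 in edgeR's quasi-likelihood test (0% of the genes tested), and the lowest adjusted p was 0.0804, shared by Iigp1, Prc1 and Nppb. At an unadjusted p below 0.05 there were 401 genes (3.27%), 212 of them higher with ACF (1.73%) and 189 lower (1.54%), and leaving out 1 library at a time gave 181 (without ACF library 6692) to 895 (without sham library 6763). DESeq2, with its own dispersion estimates, called 7 genes (0.0388% of those it tested). They were Nppb, Tnfrsf12a, Mki67 and Prc1 among the higher ones and Iigp1, Cyp26b1 and Tgtp1 among the lower ones, and Prc1 and Tgtp1 fall outside the naming rule and were added after their values were seen. In simulated counts made from these libraries, with 200 genes changed per run, the edgeR test recovered 0% of 1.5-fold changes, 59% of 2-fold changes and 93% of 4-fold changes. The 2-fold run also called 13 unchanged genes beside 118 changed ones. Changes of 1.5-fold were thus not detectable in that setting at this number of libraries.

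Nppb, which encodes B-type natriuretic peptide, a hormone released by stretched ventricular myocytes, was higher in every ACF library. It had 109.9, 162.5 and 118.3 CPM in the ACF libraries, against 41.1, 53.7 and 40.7 CPM in the sham libraries. The lowest ACF value was about double the highest sham value, with a log2 fold change of 1.53 ± 0.19 (SE), an edgeR adjusted p of 0.0804 and a DESeq2 adjusted p of 5.229e-09. Across the other ways of fitting and leaving out libraries the log2 fold change of Nppb stayed positive. The stretch upstream of Nppb is shown because it holds letters of motifs through which this gene is known to be controlled in rodent myocytes. It is RefSeq sequence of build GRCm38.p6 (chr4:147985775-147985841, plus strand), 5′ to 3′ and ending 59 bases before the transcription start, with an M-CAT motif (CATTCC on the opposite strand) and a GATA motif (AGATAA) in capitals.
Nppb: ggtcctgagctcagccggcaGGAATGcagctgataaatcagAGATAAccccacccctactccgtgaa
An M-CAT motif on either strand was in the 300-base start windows of 8 of 20 genes of the natriuretic peptide and fetal stress list that had a window, and in 16.6% of all 27025 genes with one. The AGATAA motif was in 3 of those 20 and in 12.7% of all genes.

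Tnfrsf12a, the receptor of the cytokine TWEAK, had 15.2, 25.3 and 18.1 CPM in the ACF libraries, against 8.39, 8.54 and 6.53 CPM in the sham libraries. The groups did not overlap, and the log2 fold change was 1.32 ± 0.21 (SE), with an adjusted p of 0.347 in edgeR's quasi-likelihood test and 0.0007002 in DESeq2. Nppa, which encodes atrial natriuretic peptide, had 40.95, 29.3 and 15.8 CPM in the ACF libraries, against 14.5, 13.5 and 7.71 CPM in the sham libraries. The groups were separated by little, because ACF library 6693 lay close to the highest sham library. Nmrk2, a nicotinamide riboside kinase that makes NAD precursors in muscle, had 4.95, 3.22 and 2.00 CPM with ACF, against 1.76, 1.51 and 0.589 CPM with sham.

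Other genes of the fetal programme were higher on average without separating the groups. Myh7, the slow myosin heavy chain of the fetal rodent ventricle, had 289.4, 351.5 and 137.8 CPM with ACF, against 74.7, 233.2 and 65.4 CPM with sham. Sham library 6695 lay above ACF library 6693, and the log2 fold change was 1.06 ± 0.49 (SE). Without sham library 6695 it was 1.89. Acta1, skeletal muscle actin, had 83.2 ± 24.2 CPM with ACF and 52.2 ± 24.9 CPM with sham (SD, n = 3 each), and Ankrd1, a stretch-responsive titin-binding protein, 267.1 ± 52.5 CPM with ACF and 192.6 ± 40.6 CPM with sham. Myh6, the adult fast myosin, had 21650 ± 2480 CPM with ACF and 18460 ± 2536 CPM with sham, a log2 difference of 0.23 ± 0.22 (SE). Over the whole list of natriuretic peptide and fetal stress genes, 23 of the 25 in the table could be tested. Of these, 9 were higher and 0 lower at an unadjusted p below 0.05 (1.73% and 1.54% of all genes), and 6 had every ACF library above every sham library (4.63% of all genes). All 23 had a positive log2 fold change and their median was 0.47, against -0.01 over all genes tested. The count was 3 without ACF library 6658, 5 without ACF library 6692 and 12 without ACF library 6693. In a fit with all 24 libraries that carry the surgery in their titles it was 3 of 24 tested genes. In that fit without C57_wt ACF library 489 it was 5 of 24. With all 24 libraries, 23 members were positive and 1 was negative, at -0.62. Gdf15 and Tnni1 were left out of the main test for low counts. Gdf15 had 0.0678, 0.142 and 0.182 CPM with ACF, against 0.227, 0.232 and 0.161 CPM with sham. Tnni1 was at 0.0947 CPM or less.

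**Figure D1:**
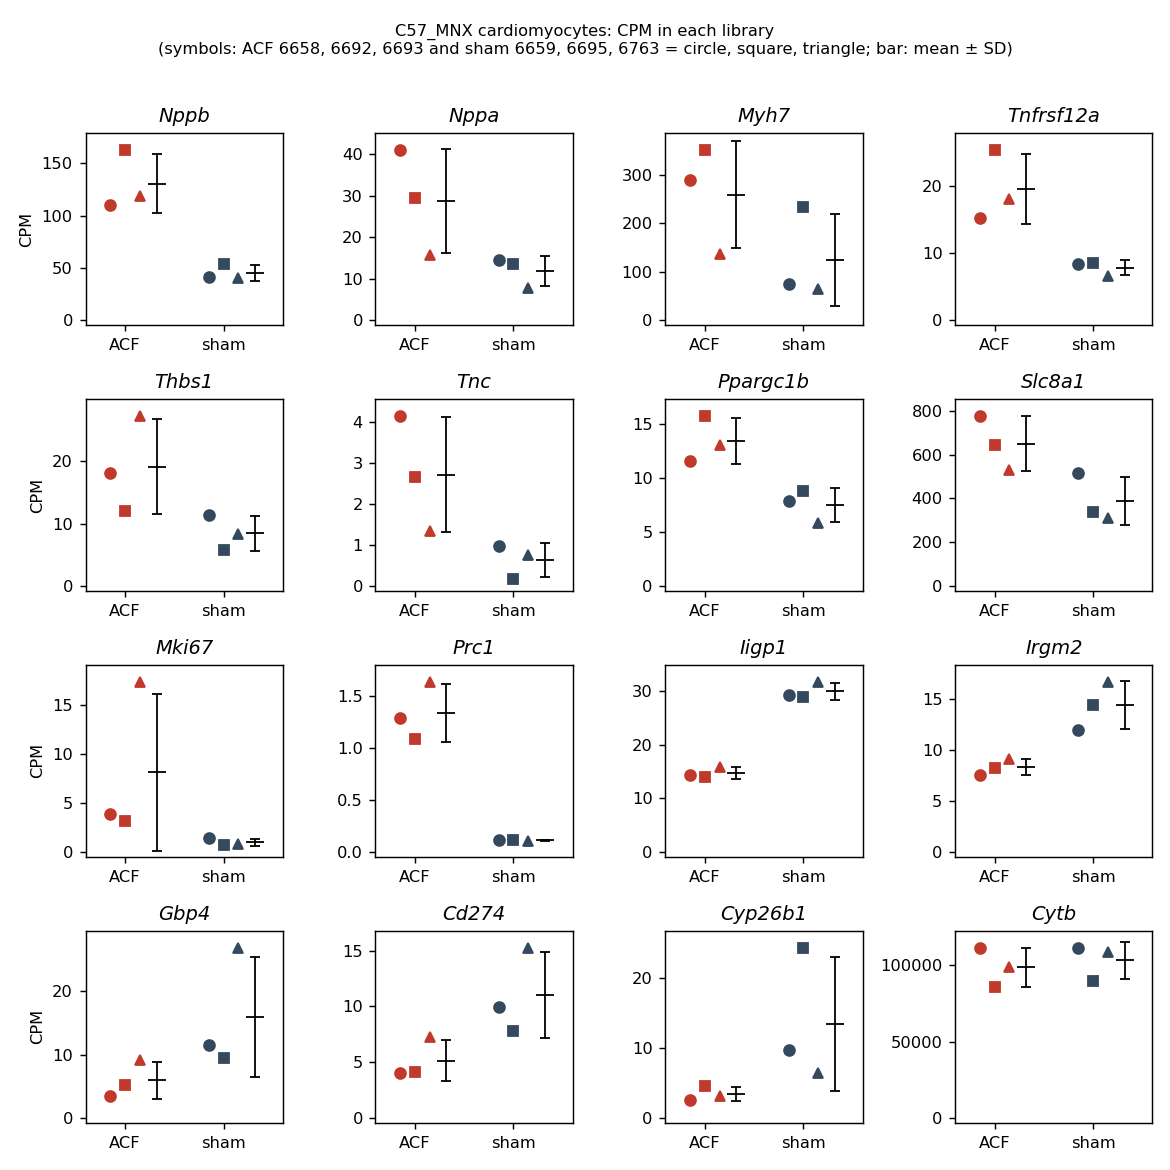
CPM of 16 genes in each C57_MNX library, ACF left and sham right, with the mean and SD as a bar beside the points. Nppb, Tnfrsf12a and Prc1 are higher in every ACF library, Iigp1 and Irgm2 lower in every ACF library, and Myh7 and Cytb overlap between groups.

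The largest coordinated difference in the other direction was in the interferon response genes. Iigp1, an immunity-related GTPase induced by interferon gamma, had 14.4, 14.0 and 16.0 CPM in the ACF libraries, against 29.3, 29.0 and 31.8 CPM in the sham libraries. The groups were far apart relative to their own spread, and the log2 fold change was -1.02 ± 0.13 (SE), with an adjusted p of 0.0804 in edgeR's quasi-likelihood test and 8.905e-07 in DESeq2. Irgm2, another GTPase of this family, had 7.59, 8.29 and 9.10 CPM with ACF, against 12.0, 14.5 and 16.7 CPM with sham. Its groups did not overlap either.

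The guanylate-binding proteins, GTPases that act against intracellular pathogens, were lower in every ACF library for Gbp2, Gbp3, Gbp4 and Gbp7, though with an uneven sham group. Gbp7 had 6.37, 9.57 and 9.95 CPM with ACF, against 13.95, 11.7 and 28.4 CPM with sham. Gbp4 had 3.46, 5.16 and 9.10 CPM with ACF, against 11.5, 9.47 and 26.9 CPM with sham. In both genes sham library 6763 was more than double the next sham library. Without it the log2 fold change was -0.56 in place of -1.06 for Gbp7, and -0.82 in place of -1.43 for Gbp4. Cd274, the gene of the checkpoint ligand PD-L1 and itself interferon-induced, had 4.00, 4.07 and 7.22 CPM with ACF, against 9.93, 7.78 and 15.3 CPM with sham.

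Of the 34 interferon response genes in the table, all of them tested, 20 were lower and 0 higher at an unadjusted p below 0.05 (1.54% and 1.73% of all genes), 14 had every ACF library below every sham library (3.7% of all genes), and all 34 had a negative log2 fold change. Their median was -0.70, against -0.01 over all genes tested. Iigp1 had the lowest p of the list, and the smallest difference was that of Oasl2 at -0.05. Gbp4, Cd274 and Tgtp1 are not members of the list and are not in its counts. The summed CPM of the list was 268.1, 310.8 and 352.1 with ACF and 362.2, 462.8 and 640.7 with sham, so the highest ACF library and the lowest sham library were nearly level. Without sham library 6763 the count was 11 and the median -0.31, without ACF library 6658 the count was 8 and the median -0.56, and without ACF library 6692 they were 10 and -0.66. In the fit with all 24 libraries, whose spread takes in the other genotypes, 1 of the 34 was below the threshold and the median was -0.70. Sham library 6763 was also the highest in markers of endothelial cells, which express many of these genes. The summed CPM of 8 endothelial markers was 498.9, 606.8 and 589.2 with ACF and 563.3, 434.7 and 1082 with sham (exact 2-sided permutation p = 0.9, the lowest the design allows being 0.1), and their part in the result was not tested. Without sham library 6763, Iigp1 and Irgm2 were at -0.98 and -0.67, against -0.64 for Gbp3, -0.82 for Gbp4 and -0.56 for Gbp7. In bulk libraries, fewer cells of a type and less RNA per cell cannot be told apart.

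**Figure D2:**
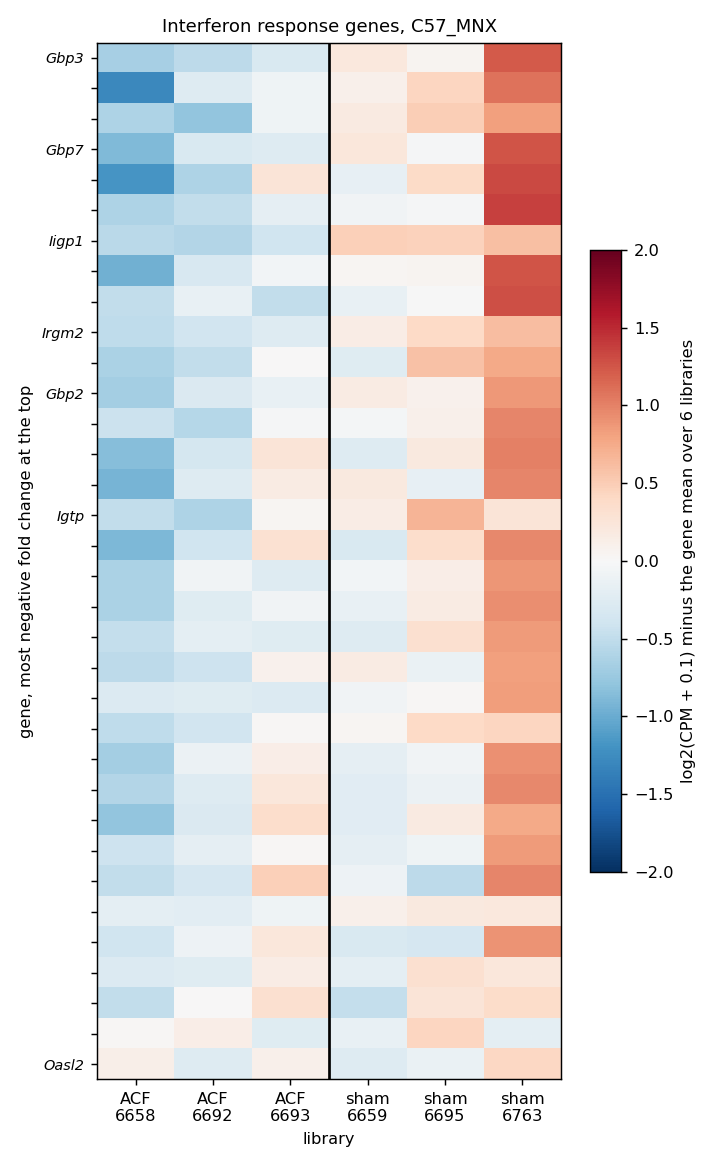
Heat map of the 34 interferon response genes in the 6 C57_MNX libraries, coloured by log2(CPM + 0.1) minus the mean of each gene, ACF columns left and sham columns right, with rows labelled for genes described in the text. ACF library 6658 is the lowest for most genes and sham library 6763 the highest, and Iigp1 and Irgm2 also separate the other libraries.

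Upstream of several of these GTPase genes, a GAS motif (TTCNNNGAA, bound by STAT dimers) is followed after 2 bases by an ISRE motif (GAAANNGAAA, bound by interferon regulatory factors). Stretches before 4 genes, chosen because they hold this arrangement, are shown 5′ to 3′ with both motifs in capitals. They are RefSeq sequences of build GRCm38.p6: Irgm2 (chr11:58214882-58214942, plus strand), Igtp (chr11:58199491-58199551, plus strand), Tgtp1 (chr11:48992294-48992354, minus strand) and Tgtp2 (chr11:49064253-49064313, minus strand).
Irgm2: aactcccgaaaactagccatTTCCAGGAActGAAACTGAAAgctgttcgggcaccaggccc
Igtp: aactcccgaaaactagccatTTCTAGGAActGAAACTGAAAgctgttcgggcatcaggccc
Tgtp1: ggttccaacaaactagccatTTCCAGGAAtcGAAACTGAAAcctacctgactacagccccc
Tgtp2: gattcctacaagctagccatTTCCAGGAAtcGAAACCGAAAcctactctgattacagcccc
The arrangement was in the start windows of 5 of 27025 genes (0.0185%), these 4 and the predicted gene Gm12185, on either strand. Of the interferon response genes with a window, 16 of 29 held an ISRE (3.99% of all genes) and 10 of 29 a GAS motif (9.55% of all genes). Igtp had 4.95, 4.55 and 7.22 CPM with ACF, against 7.77, 11.3 and 8.41 CPM with sham. Tgtp1, also an immunity-related GTPase, had 0.814, 0.852 and 2.43 CPM with ACF, against 3.29, 5.75 and 7.61 CPM with sham. Every ACF library lay below every sham library for both genes, and DESeq2 gave Tgtp1 a log2 fold change of -2.04 with an adjusted p of 0.03011. Tgtp1 and Tgtp2 are near-identical neighbours, so their reads may have been split between them by the authors' counting.

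A few genes of cell division, all with low counts, were higher in every ACF library. Prc1, which bundles microtubules at the midzone of dividing cells, had 19, 23 and 27 counts in the ACF libraries, against 2 in each of the 3 sham libraries. Its summed rate was 11.8 times as high with ACF (exact 95% interval 5.14 to 33.1, for counting error only), and the adjusted p was 0.0804 in edgeR's quasi-likelihood test and 0.01596 in DESeq2. Mki67, the proliferation antigen, had 3.86, 3.17 and 17.4 CPM with ACF, against 1.42, 0.697 and 0.803 CPM with sham. ACF library 6693 was more than 4 times the other ACF libraries, and the log2 fold change of Mki67, 3.05 in the 6 libraries, was 1.83 without it. Top2a, the topoisomerase of replicating cells, had 22, 32 and 71 counts with ACF, against 13, 3 and 7 with sham. Ccna2, cyclin A2, had 15, 15 and 44 counts with ACF, against 6, 2 and 4 with sham. ACF library 6693 held more than the other ACF libraries together, and without it the log2 fold changes were 1.78 in place of 2.48 for Top2a and 1.88 in place of 2.66 for Ccna2. Ccnd1, the G1 cyclin D1, had 36.0 ± 7.45 CPM with ACF and 23.3 ± 6.47 CPM with sham (SD, n = 3 each), with overlapping groups.

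Of 28 listed cell cycle and DNA replication genes, 17 passed the filter on low counts. Of these, 6 were higher and 0 lower at an unadjusted p below 0.05 (1.73% and 1.54% of all genes) and 4 had every ACF library above every sham library (4.63% of all genes), while the other 13 overlapped. Prc1 is not a member of this list. Like Prc1, the members Top2a and Ccna2 would not have passed the filter without the ACF libraries, in which they are high. The count of higher members is therefore tilted by the filter and is a description only. The median log2 fold change was 0.36, and 0.10 without ACF library 6693. The count was 3 without sham library 6659 and 4 without ACF library 6692, ACF library 6693 or sham library 6695. ACF library 6693 also had the highest levels of blood cell transcripts. The summed CPM of 6 neutrophil markers was 0.610, 2.37 and 56.3 with ACF and 1.48, 1.51 and 1.82 with sham, with Mpo, the myeloperoxidase of early granulocytes, at 23.3 CPM in library 6693 and at 0 in all 3 sham libraries. The summed CPM of 5 erythrocyte markers was 14.9, 7.58 and 242.7 with ACF and 6.07, 12.1 and 82.8 with sham, so sham library 6763 was raised for these too. Prc1 was about as high without ACF library 6693, with a log2 fold change of 3.30 against 3.49, and the part of blood cells in the values of Mki67, Top2a and Ccna2 was not tested.

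CCAAT boxes and the cell cycle homology region (CHR, TTTGAA) are known in many genes of mitosis, and the stretches before Prc1 (chr7:80294394-80294471, plus strand) and Mki67 (chr7:135716452-135716587, minus strand) are shown because both hold them. Both are RefSeq sequence of build GRCm38.p6, 5′ to 3′, with CCAAT (or ATTGG on the opposite strand) and TTTGAA in capitals.
Prc1: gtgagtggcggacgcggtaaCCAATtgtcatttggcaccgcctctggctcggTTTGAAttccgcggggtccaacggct
Mki67: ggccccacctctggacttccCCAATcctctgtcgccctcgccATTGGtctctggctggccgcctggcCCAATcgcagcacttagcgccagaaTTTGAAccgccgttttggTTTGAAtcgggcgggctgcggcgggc
CCAAT on either strand was in the windows of 10 of 12 cell cycle genes with one and in 41.1% of all genes. TTTGAA on either strand was in 3 of those 12 and in 20.2% of all genes.

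**Figure D3:**
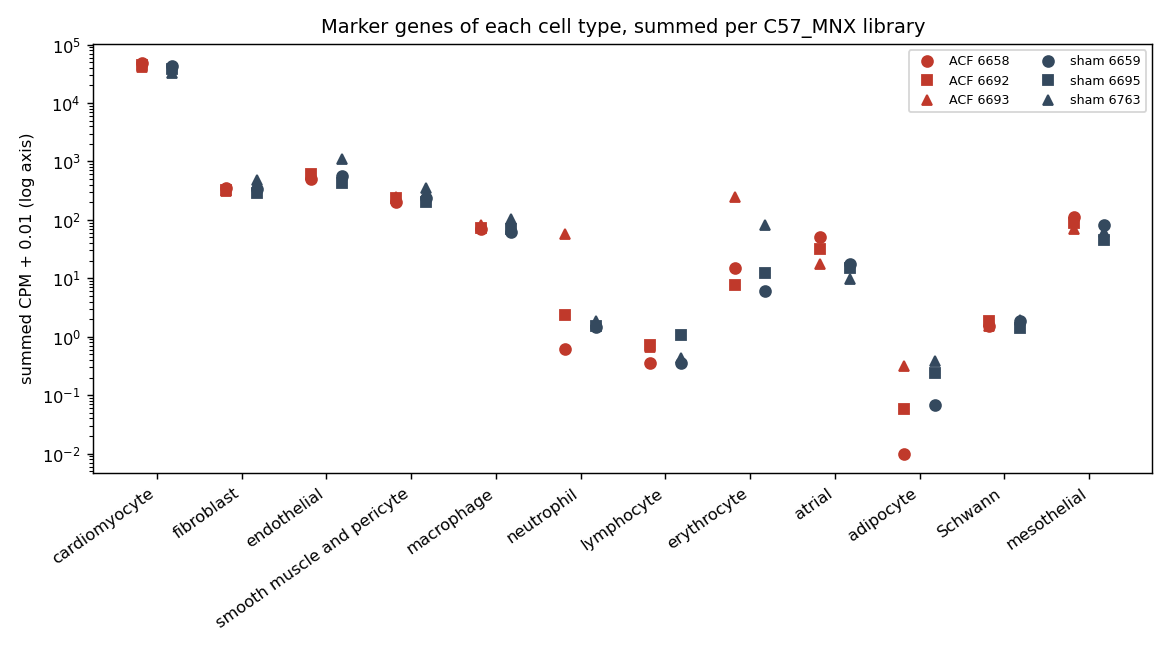
Summed CPM of the marker genes of 12 cell types in each C57_MNX library, on a log axis after adding 0.01, with ACF left and sham right for each type. The neutrophil and erythrocyte sums of ACF library 6693 stand above the other ACF libraries, and the endothelial sum of sham library 6763 above the other 5 libraries.

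Cardiomyocyte markers had the largest sums of the 12 marker lists. These lists hold genes of unlike abundance, so the sums do not measure the purity of the cells. The summed CPM of 9 cardiomyocyte genes, Myh6 among them, was 47510, 45300 and 41050 with ACF and 43030, 38210 and 32470 with sham, against at most 1082 CPM for any other cell type. Fibroblast markers summed to 329.8 ± 20.5 CPM with ACF and 367.9 ± 98.9 CPM with sham (SD, n = 3 each), and macrophage markers to 74.7 ± 5.93 CPM with ACF and 79.5 ± 22.7 CPM with sham. Over the 12 marker lists the exact 2-sided permutation p of the summed CPM lay between 0.2 and 1. After adjustment it lay between 0.8 and 1. On the mean log2 level of the markers in place of their sum, the cardiomyocyte list was higher with ACF by 0.19. Its unadjusted p in the same test was 0.1, the lowest of the 12 lists and the lowest the design allows. With so few libraries these tests cannot show that the groups were alike in cell composition.

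Matricellular genes, whose proteins are laid down in the matrix of a loaded heart and act on cells rather than build fibres, were higher for a few members. Thbs1, thrombospondin 1, had 18.1, 12.0 and 27.2 CPM with ACF, against 11.3, 5.69 and 8.25 CPM with sham. Tnc, tenascin C, had 4.14, 2.65 and 1.34 CPM with ACF, against 0.964, 0.174 and 0.750 CPM with sham. Thbs4, thrombospondin 4, had 2.35 ± 0.48 CPM with ACF and 1.09 ± 0.25 CPM with sham (SD, n = 3 each). The lowest ACF library lay above the highest sham library for all 3 genes, and also for Adam12, a membrane protease that sheds growth factors, which summed to 43 counts with ACF and 18 with sham. Of 31 tested genes of this list, 4 were higher and 1 lower at an unadjusted p below 0.05 (1.73% and 1.54% of all genes), and the median log2 fold change was 0.10. Tnc and Adam12 would not have passed the filter on low counts without the ACF libraries, so the count of higher members is tilted by the filter. Without sham library 6763, 13 of 33 tested genes were higher and the median was 0.51, and without sham library 6695, 3 of 34 were higher, 5 lower and the median was 0.01, so the list's counts depended on which sham library was left out. Of 35 collagen and structural matrix genes, 0 were on either side and the median was -0.03.

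Several genes of cardiomyocyte structure and calcium handling were higher in every ACF library. Slc8a1, the sodium-calcium exchanger that extrudes calcium in diastole, had 776.7, 645.1 and 528.0 CPM with ACF, against 513.9, 337.0 and 310.6 CPM with sham. Srl, the calcium-binding protein sarcalumenin of the sarcoplasmic reticulum, had 809.1, 794.2 and 730.7 CPM with ACF, against 633.5, 613.0 and 458.3 CPM with sham. Jph2, junctophilin 2, which holds the reticulum to the T-tubule, had 241.2 ± 7.80 CPM with ACF and 190.8 ± 27.1 CPM with sham (SD, n = 3 each). Cacna1g, a T-type calcium channel gene, was lower in every ACF library, with 6.39 ± 0.67 CPM with ACF and 8.16 ± 0.61 CPM with sham. Across the alternatives run, log2 fold changes fell to 0.32 from 0.45 for Srl and to 0.22 from 0.34 for Jph2. The list of calcium handling and sodium and calcium channel genes had a median of 0.08, with 16 members positive and 9 negative. Its summed CPM was 20890, 20030 and 18440 with ACF and 19900, 19770 and 14790 with sham. The groups overlapped, and sham library 6763 was low. Of its 25 tested genes, 2 were higher and 0 lower at an unadjusted p below 0.05, and so were 2 and 0 of 22 potassium channel genes (1.73% and 1.54% of all genes). The 2 potassium channel genes were Kcne1, a regulatory subunit of the slow delayed rectifier (3.16 ± 0.84 CPM with ACF and 1.73 ± 0.29 CPM with sham), and Kcnj12, an inward rectifier (11.5 ± 0.32 CPM with ACF and 9.14 ± 1.00 CPM with sham).

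Among 26 adult sarcomere genes, 3 were higher and 0 lower at an unadjusted p below 0.05 (1.73% and 1.54% of all genes). The count was 0 without ACF library 6658 or 6692, and the median log2 fold change of 0.14 was 0.04 without sham library 6763, the library with the lowest cardiomyocyte marker sum (32470 CPM). Mybpc3, cardiac myosin-binding protein C, had 2210, 2266 and 2101 CPM with ACF, against 1766, 1672 and 1131 CPM with sham. Actc1, cardiac alpha-actin, had 4373, 4999 and 4887 CPM with ACF, against 3942, 3387 and 2101 CPM with sham. In both, sham library 6763 was far below the other sham libraries, and without it the log2 fold change of Actc1 was 0.37 in place of 0.60. Nrap, an anchoring protein of the intercalated disc, overlapped between groups at 401.8 ± 58.7 CPM with ACF and 296.1 ± 55.1 CPM with sham (SD, n = 3 each). Of 36 cytoskeleton and intercalated disc genes, 0 were on either side of the threshold and 5 had every ACF library above every sham library (4.63% of all genes).

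Of the genes of mitochondrial upkeep, biogenesis, dynamics and mitophagy, 2 of 31 were higher and 0 lower at an unadjusted p below 0.05 (1.73% and 1.54% of all genes), with a median log2 fold change of 0.07. The first, Ppargc1b, a coactivator of mitochondrial biogenesis and fatty acid oxidation, had 11.5, 15.7 and 13.0 CPM with ACF, against 7.88, 8.83 and 5.78 CPM with sham. Its relative Ppargc1a had 116.5, 92.9 and 86.3 CPM with ACF, against 70.6, 74.1 and 68.3 CPM with sham. Neither group overlapped the other in these genes, with log2 fold changes of 0.84 ± 0.20 and 0.47 ± 0.15 (SE). Ppara, the nuclear receptor that drives fatty acid oxidation genes, had 77.96 ± 13.2 CPM with ACF and 59.6 ± 6.09 CPM with sham (SD, n = 3 each), and the groups overlapped. Of 20 tested PPAR-driven genes, these 3 were higher and 0 were lower at an unadjusted p below 0.05 (1.73% and 1.54% of all genes).

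The 37 nuclear-encoded genes of complex I and the 45 of complexes II to V had 0 genes on either side of the threshold, with median log2 fold changes of -0.01 and -0.05. These medians depended on the sham libraries, at 0.26 and 0.26 without sham library 6695, and at -0.24 and -0.27 without sham library 6763, when 2 genes of each list were lower at an unadjusted p below 0.05. None of these genes separated the groups. Their summed CPM overlapped between groups: complex I genes had 3309, 3835 and 4028 CPM with ACF, against 3757, 4981 and 2565 CPM with sham. Sham library 6695 was the highest and sham library 6763 the lowest of the 6, with all 3 ACF libraries between them. Of 76 mitochondrial ribosomal protein genes, 0 passed and the median was 0.06. The 3 mitochondrially encoded transcripts in the table took 21.6% to 23.8% of counts with ACF and 22.4% to 24.8% with sham. Cytb, cytochrome b of complex III, had 98870 ± 12870 CPM with ACF and 103200 ± 11910 CPM with sham (SD, n = 3 each). Cox2, a subunit of complex IV, had 60350 ± 6296 CPM with ACF and 60950 ± 7332 CPM with sham, and Atpase6, a subunit of the ATP synthase, 73200 ± 10930 CPM with ACF and 73580 ± 9869 CPM with sham. The log2 fold changes of the 3 lay between -0.06 and -0.01, with standard errors of 0.24 to 0.26. Nnt, the inner-membrane transhydrogenase that supplies NADPH, had 317.1 ± 8.78 CPM with ACF and 281.8 ± 68.5 CPM with sham.

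Among glucose-handling genes a few members were higher in every ACF library. Of 32 genes of glycolysis, glycogen and glucose uptake, 4 were higher and 0 lower at an unadjusted p below 0.05 (1.73% and 1.54% of all genes), 7 had every ACF library above every sham library (4.63% of all genes), and the median log2 fold change was 0.18. The summed CPM of the list was 7156, 7650 and 7651 with ACF, against 7318, 7750 and 5416 with sham, so the groups overlapped and sham library 6763 was low. Without that library the median was 0.06. The count was 2 without ACF library 6658 or sham library 6659 and 1 without ACF library 6692. Pfkp, the platelet isoform of phosphofructokinase, had 31.3, 31.7 and 22.6 CPM with ACF, against 22.0, 19.6 and 15.5 CPM with sham. Eno1, the embryonic enolase, had 65.3 ± 3.91 CPM with ACF and 48.3 ± 5.99 CPM with sham (SD, n = 3 each). Hk1, a mitochondria-bound hexokinase, had 110.4 ± 9.85 CPM with ACF and 84.2 ± 12.6 CPM with sham, and Pgam1, phosphoglycerate mutase, 33.3 ± 2.04 CPM with ACF and 25.2 ± 5.24 CPM with sham. Without sham library 6763 the log2 fold change of Pgam1 was 0.25 in place of 0.40. Of 31 genes of fatty acid uptake and oxidation, 0 were on either side of the threshold. Bdh1, which oxidises the ketone body beta-hydroxybutyrate, was the 1 of 31 genes of the TCA cycle and of branched-chain and ketone oxidation that was higher at an unadjusted p below 0.05 (1.73% of all genes), with 88.8 ± 2.25 CPM with ACF and 64.8 ± 18.9 CPM with sham.

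**Figure D4:**
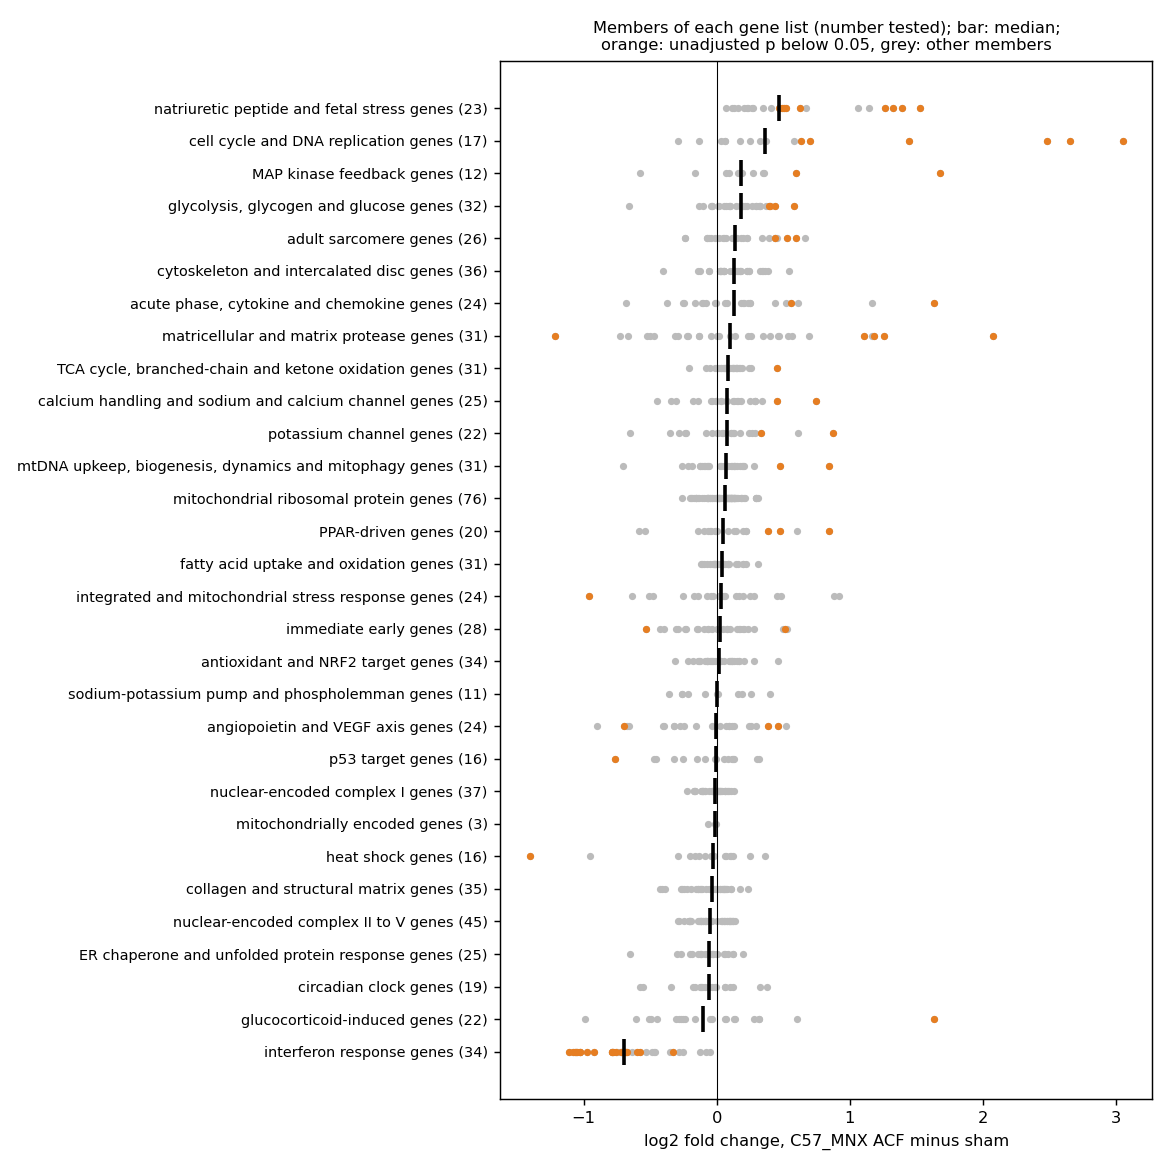
Log2 fold change (ACF minus sham) of each tested member of 30 gene lists in C57_MNX, with list medians as bars and members at an unadjusted p below 0.05 in orange. The interferon response list lies wholly below 0 with a median of -0.70, the natriuretic peptide and fetal stress list wholly above 0 with a median of 0.47, and the respiratory chain lists have medians of -0.01 and -0.05.

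For higher genes, the naming rule took only those with every ACF library above every sham library (4.63% of all genes). Separation was therefore a condition for the other genes named by the rule. They included Ednra, the endothelin A receptor through which endothelin drives myocyte growth (35.2 ± 2.51 CPM with ACF and 24.7 ± 1.71 CPM with sham, SD, n = 3 each here and below), and Mylk4, a myosin light chain kinase (171.1 ± 19.8 CPM with ACF and 116.5 ± 5.43 CPM with sham). Micall1 and Mical2, proteins of endosome recycling and of actin oxidation, had 69.7 ± 1.96 and 58.9 ± 6.65 CPM with ACF, and 51.1 ± 3.45 and 42.5 ± 1.11 CPM with sham. Dnajb5, a stress-inducible chaperone partner, had 36.1 ± 3.61 CPM with ACF and 26.1 ± 2.03 CPM with sham. Sema3b, a secreted semaphorin, had 18.4 ± 2.30 CPM with ACF and 12.98 ± 0.43 CPM with sham, and Apold1, an early gene of endothelial cells, 12.8 ± 1.41 CPM with ACF and 8.93 ± 0.74 CPM with sham.

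For lower genes, the naming rule likewise took only those with every ACF library below every sham library (3.7% of all genes). Among the genes it took, Cyp26b1, the enzyme that breaks down retinoic acid, had the lowest p outside the interferon list. It had 2.576, 4.499 and 3.095 CPM with ACF, against 9.64, 24.3 and 6.37 CPM with sham. The groups did not overlap, but the size of the difference rested on sham library 6695, since the log2 fold change was -1.96 in the 6 libraries and -1.22 without it. DESeq2 gave an adjusted p of 0.01596. Aqp7, a channel for glycerol, and Lipe, hormone-sensitive lipase, were lower in every ACF library, with 5.82 ± 1.37 and 12.3 ± 0.45 CPM with ACF, and 11.7 ± 3.88 and 17.6 ± 3.61 CPM with sham. Steap4, a metalloreductase, had 19.96 ± 2.63 CPM with ACF and 27.8 ± 3.46 CPM with sham. Mylip, a ubiquitin ligase for lipoprotein receptors, had 7.59 ± 1.05 CPM with ACF and 13.3 ± 5.24 CPM with sham, and Crbn, the substrate receptor cereblon, 17.7 ± 0.98 CPM with ACF and 23.4 ± 2.63 CPM with sham. Without sham library 6763, which was the highest for Mylip, its log2 fold change was -0.45 in place of -0.81.

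Signalling lists held few genes past the threshold. Of 28 immediate early genes, 1 was higher and 1 lower at an unadjusted p below 0.05 (1.73% and 1.54% of all genes), Apold1 and Klf2, a flow-responsive factor of endothelial cells (7.08 ± 1.5 CPM with ACF and 10.2 ± 2.80 CPM with sham). Of 12 tested genes of MAP kinase feedback, 2 were higher (1.73% of all genes) and 0 lower: Dusp4, a nuclear phosphatase of ERK, with 11, 21 and 10 counts with ACF, against 3, 4 and 6 with sham, which would not have passed the filter on low counts without the ACF libraries, and Dusp10, a phosphatase of JNK and p38, with 4.25 ± 0.36 CPM with ACF and 2.81 ± 0.48 CPM with sham. In the angiopoietin and VEGF axis, 2 of 24 genes were higher and 1 lower (1.73% and 1.54% of all genes). Vegfa, the endothelial growth factor made by cardiomyocytes, had 190.8 ± 31.8 CPM with ACF and 145.9 ± 15.2 CPM with sham, and Apln, the peptide apelin, 7.39 ± 1.00 CPM with ACF and 5.39 ± 1.00 CPM with sham. Tek, the angiopoietin receptor of endothelial cells and 1 of the endothelial markers, had 30.5 ± 3.67 CPM with ACF and 49.4 ± 24.7 CPM with sham, and without sham library 6763 its log2 fold change was -0.21 in place of -0.70. Its ligand Angpt1 had 15.5 ± 3.70 CPM with ACF and 24.4 ± 10.2 CPM with sham.

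Few genes of the stress lists were below an unadjusted p of 0.05, a threshold that 1.73% of all genes passed as higher and 1.54% as lower. Of 16 heat shock genes 1 was lower, Hspa1a, the inducible HSP70, with 2.13 ± 1.27 CPM with ACF and 5.49 ± 2.05 CPM with sham. Of 24 genes of the integrated and mitochondrial stress response 1 was lower, Chac1, which degrades glutathione, with 0.731 ± 0.38 CPM with ACF and 1.40 ± 0.33 CPM with sham, and of 16 p53 targets 1 was lower, Eda2r, with 1.49 ± 0.37 CPM with ACF and 2.502 ± 0.762 CPM with sham. Of 24 acute phase, cytokine and chemokine genes 2 were higher. Lcn2, lipocalin 2, had 2.71, 2.04 and 7.77 CPM with ACF, against 2.10, 1.16 and 0.750 CPM with sham, and its log2 fold change of 1.63 was 0.80 without ACF library 6693. Lrg1, a secreted glycoprotein, had 9.16 ± 2.26 CPM with ACF and 6.22 ± 1.26 CPM with sham. Of 34 antioxidant and NRF2 target genes, 25 of the ER chaperone and unfolded protein response, 19 of the circadian clock and 11 of the sodium-potassium pump, 0 were on either side of the threshold. The lists of mtDNA upkeep and of glucocorticoid-induced genes had 2 of 31 and 1 of 22 genes higher, all of them named above.

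Whether the response to ACF differed from that of other genotypes was tested in 1 model of the 24 libraries that carry the surgery in their titles. These add C57_wt (tagged as wild-type C57), C3H_MNX (tagged MNX C57n:C3Hmt) and C3H_wt (tagged as wild-type C3H). Each has 3 ACF and 3 sham libraries of day 3. The C3H_MNX libraries were taken to have the opposite nuclear expression profile to C57_MNX, but they were not scored here. No gene passed an adjusted p of 0.05 for the response of C57_MNX minus that of C57_wt (0% of 13440 genes) or minus that of C3H_MNX (0%), in edgeR or in DESeq2. At an unadjusted p below 0.05 there were 774 genes (5.76%) for the first difference, 85 of them higher (0.632%) and 689 lower (5.13%), and 232 (1.73%) for the second, 73 higher (0.543%) and 159 lower (1.18%). The first count rested on C57_wt ACF library 489, without which it was 227 (1.68%). Without library 489 the second count was 580 (4.28%). The C57_wt ACF libraries were uneven in composition. Their summed CPM of adult sarcomere genes was 10920, 65190 and 78960 in rising order, against 56570 to 67080 in the C57_wt sham libraries. The genes of lowest p for the difference from C57_wt included Junb and Nr4a1, immediate early transcription factors, whose response in C57_MNX was lower by 2.21 ± 0.60 and 2.05 ± 0.60 on the log2 scale (SE), and by 1.22 and 1.55 without library 489. For the difference from C3H_MNX it was Spry4, a feedback inhibitor of receptor tyrosine kinases, with a log2 fold change of 0.27 ± 0.27 in C57_MNX and 1.79 ± 0.27 in C3H_MNX (SE).

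Set side by side, the fold changes of Nppb were alike in direction in the 4 titled genotypes. In the fit without library 489, Nppb had a log2 fold change of 1.53 ± 0.33 in C57_MNX, 1.17 ± 0.36 in C57_wt, 0.94 ± 0.32 in C3H_MNX and 1.67 ± 0.33 in C3H_wt (SE). Tnfrsf12a had 1.33 ± 0.27 in C57_MNX, 0.97 ± 0.29 in C57_wt, 0.79 ± 0.25 in C3H_MNX and 0.98 ± 0.25 in C3H_wt. Myh7 was at 1.07 ± 0.56 in C57_MNX and 4.52 ± 0.67 in C57_wt, and the difference of the responses was -3.46 ± 0.84 with an adjusted p of 1 in edgeR's quasi-likelihood test. The Myh7 response in C57_MNX minus that in C3H_MNX was 1.06 ± 0.79, with an adjusted p of 0.9265 in the same test. Iigp1 had -1.02 ± 0.42 in C57_MNX, -1.22 ± 0.49 in C57_wt, -0.37 ± 0.42 in C3H_MNX and -2.25 ± 0.43 in C3H_wt. The median of the interferon response list was -0.69 in C57_MNX, -0.66 in C57_wt, 0.31 in C3H_MNX and -0.71 in C3H_wt, and with library 489 in the fit it was 0.12 in C57_wt. Ppargc1b had 0.85 ± 0.23 in C57_MNX, 0.57 ± 0.24 in C57_wt, -0.16 ± 0.22 in C3H_MNX and 0.03 ± 0.22 in C3H_wt, and the difference of its response from that in C3H_MNX was 1.01 ± 0.32 with an adjusted p of 0.9265. The difference of the Ppargc1b response from that in C57_wt was 0.28 ± 0.33, and 0.70 ± 0.49 with library 489 in the fit.

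**Figure D5:**
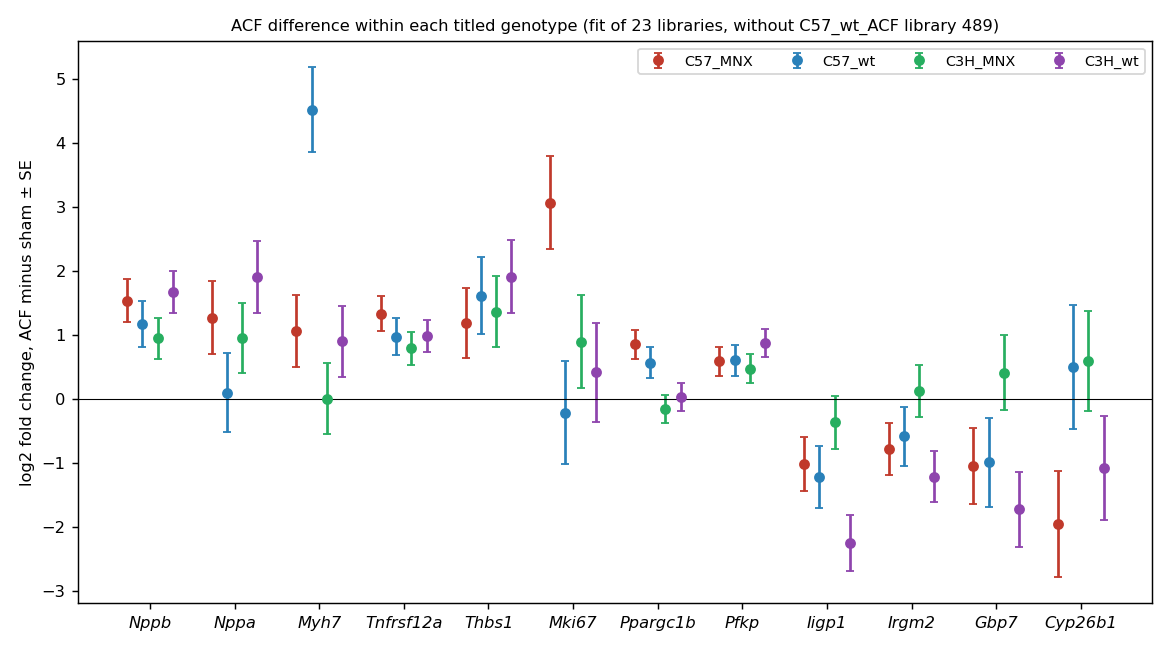
Log2 fold change (ACF minus sham) with its SE for 12 genes in C57_MNX and the other 3 titled genotypes, from the fit without C57_wt ACF library 489. Nppb and Tnfrsf12a are above 0 in all 4 genotypes, and Iigp1 is below 0 in all 4 with C3H_MNX the closest to 0.

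Over all genes at an unadjusted p below 0.05 in C57_MNX, the direction was compared in genotypes that share no library with it. Of the 212 higher genes, 82.1% were also higher in C57_wt without library 489 (73.1% with it), 72.2% in C3H_MNX and 81.1% in C3H_wt. Of the 189 lower genes, 83.1% were also lower in C57_wt without library 489 (46% with it), 37.6% in C3H_MNX and 82% in C3H_wt. Over all 12260 genes the share with the same sign was 64.4% in C57_wt without library 489 (48.7% with it), 48.3% in C3H_MNX and 58.3% in C3H_wt. Genes are not independent replicates, and these shares are a description of the libraries.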

How the data were processed

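The deposited table holds RSEM expected counts for 30743 gene symbols in 48 libraries, and 13.9% of its values were not whole numbers. Per the submitters' processing notes the tools were CASAVA 1.8.2, Bowtie and RSEM 1.2.0 with build mm9, while the labels' protocols name a mapping algorithm of the sequencing provider, so which of them made the table is not settled. Per the labels' protocols, library preparation used an mRNA kit that marks strand. How the counting used strand is not given in the sources used here.

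Counts were rounded to whole numbers. The 6 C57_MNX libraries were fitted with edgeR 4.0.16 (R 4.3.3, TMM scaling, filterByExpr, quasi-likelihood F test, Benjamini-Hochberg adjustment over all 12260 genes, threshold 0.05). Nothing in the labels ties the libraries to separate animals beyond their numbers, so the p-values rest on a spread that may be technical. CPM are TMM-scaled over the 6 libraries and are not divided by gene length. The scaling was over all 48 for the strain score and for the Kcnj14 and Nnt values given with it. Standard errors were taken from the log2 fold change and the F statistic. Differences between genotypes came from 1 model of 24 libraries (13440 genes). DESeq2 1.42.0 was an alternative. The fits were tested on simulated data. Replicates were compared by chi-square: the closest pair differed by 9.98 times the sampling noise, so none was counted as a duplicate. Intervals cover counting error only.

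Named genes were those past the threshold or, to fill 12 places per direction, those of lowest unadjusted p whose groups did not overlap and whose mean log2 CPM was 3 or more, up to 4 per gene list, and a fixed set of heart and mitochondrial genes. Members, gene lists and markers were chosen with earlier results of these data known. The strain score used genes that differed by at least 1.5 on the log2 scale between nuclei. Motifs were searched on both strands in RefSeq start windows (250 bases before to 50 after the start, GRCm38.p6, while the counts use mm9).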

Additional observations from a re-analysis of the deposited data

How the results depend on the processing

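No paired analysis was possible because the ACF and sham libraries share no replicate number. The count of genes past the threshold for ACF against sham in C57_MNX was 0 in edgeR, 7 with DESeq2, 4 with no filter on low counts (Nppb, Prc1, Tnfrsf12a and Iigp1) and 0 to 1 when 1 library was left out at a time, the 1 being AK139999 without sham library 6659. Leaving out both ACF library 6693 and sham library 6763, an alternative chosen after seeing the data, gave 0. The count at an unadjusted p below 0.05, 401, was about 7.1e+02 with no filter, 222 with a mean of at least 100 counts and 1004 without both of those libraries. Single libraries left out gave 181 to 895: 181 without ACF library 6692, 277 without 6658, 396 without 6693, 570 and 895 without sham libraries 6659 and 6763, and between those 2 without sham library 6695. The fit of 24 libraries gave 274, or 542 without C57_wt ACF library 489, and DESeq2 gave 365. With DESeq2 size factors in edgeR the 212 higher and 189 lower genes became 191 and 215. The differences between genotypes gave 0 genes under each alternative run.

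Direction turned for Cytb, Cox2, Atpase6 and Nnt, all near 0: leaving out 1 library gave Cytb -0.17 to 0.029, Cox2 -0.088 to 0.068, Atpase6 -0.13 to 0.094 and Nnt -0.011 to 0.33. Without both ACF library 6693 and sham library 6763 Atpase6 was 0.012. The C57_MNX response minus that of C57_wt for the erythroid genes Bpgm and Mkrn1 was -5.45 and -4.33, and 0.082 and 0.067 without library 489. The causes were not tested. The other named genes kept their direction under the alternatives run. With 3 libraries a group, differences of 1.5-fold are below what the test resolves.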
